A study of Homo sapiens with 20 samples.

Results

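The clustered protocadherins are cadherin-type adhesion proteins encoded by 3 neighbouring gene clusters on human chromosome 5q31, named alpha, beta and gamma. They were taken here as every row of the 12 deposited count files whose symbol begins with PCDHA, PCDHB, PCDHGA, PCDHGB or PCDHGC followed by a member number or letter. The rule found 57 of 54435 features: 15 in the alpha, 19 in the beta and 23 in the gamma cluster. Of these, 55 passed the filter on low counts and were tested among 16792 features. PCDHB1 and PCDHGC5 did not pass it, with a mean over the 12 libraries of 0.397 and 0.413 CPM (counts scaled to the size of each library).

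Each variable exon of the alpha and gamma clusters has its own promoter, and its transcript is spliced to constant exons shared by the whole cluster. Beta genes each consist of a long exon with a promoter of its own and have no shared constant exons. A neuron uses a small, largely random set of these promoters, a choice tied to binding of CTCF and cohesin, antisense transcription and DNA methylation, while the C-type genes at the ends of the alpha and gamma clusters are used more uniformly. The proteins bind themselves across cell contacts and are known above all for letting a neuron tell its own branches from those of its neighbours.

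The study set unedited H1 human embryonic stem cells (WT) beside a pair of H1 lines in which the long noncoding RNA gene DIGIT was knocked out (KO1 and KO2), before and during differentiation to endoderm. Day 0 cells of each genotype were kept feeder-free in mTeSR1 medium. Day 4 cells had been moved to RPMI medium with B27 supplement and 50 ng/ml Activin A. Each of the 6 groups held 2 poly(A) RNA-seq libraries. KO1 and KO2 were 1 line each, so a difference between a knockout line and WT cannot be told apart from a difference between lines that arose in derivation. DIGIT was not found under that name among the features, and the knockout was therefore taken from the labels. Nothing in the labels says that the libraries of a group came from separate cultures, so the p-values measure the spread between these libraries, which may be technical.

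The libraries held 9942016 to 21394547 counts on features. In the KO1 day 0 pair the libraries stood further apart than in the other groups, with a chi-square per feature of 22.4 against 1.90 to 3.92, and per clustered protocadherin of 2.27 against 0.953 to 1.47. All 8 stem cell markers examined were at 1 CPM or more in every group. The summed level of 8 definitive endoderm markers was 6.43 to 14.2 CPM at day 0, 4840 to 5480 CPM in WT and KO1 at day 4, and 1000 to 1240 CPM in KO2 at day 4. Another sum was taken over 10 neuronal markers, from cells in which clustered protocadherins are best known. It was 266 to 406 CPM at day 0 and 413 to 553 CPM at day 4, with NEUROG2 at 0 counts in WT and KO2 at day 0. The median log2 day change of the 8 neuronal markers tested was −0.46 in WT, −0.43 in KO1 and −0.93 in KO2.

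Promoter sequences are shown first because the members are chosen for transcription promoter by promoter. RefSeq windows of 300 bases (250 before to 50 after the annotated start, GRCh38.p14) were found for 47 of the 57 members, and the 5′-most window was used where a gene had 2. The windows share a short element around the letters CGCT, and its longer form differs by cluster. The letters searched, on both strands, were GGTGGCGCT, CGCTGNTNA and GTCGCTNT, each of which contains CGCT, and they were chosen with the members' windows in view. GGTGGCGCT was in 13 of 14 beta windows and in 0.501% of all 35116 windows. CGCTGNTNA was in 11 of 11 gamma A windows, 1 of 14 beta windows and 1.92% of all windows. GTCGCTNT was in 9 of 11 alpha windows, 5 of 11 gamma A windows, 1 of 7 gamma B windows and 1.91% of all windows. None of these 3 was in the windows of the 4 C-type genes with a window, PCDHAC1, PCDHAC2, PCDHGC3 and PCDHGC4, although each of the 4 held CGCT, as did 70% of all windows. A match describes letters and is not a measured binding site.

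PCDHB5 is the member that differed most between the knockout lines and WT. Its 250 upstream bases (GRCh38.p14 chr5:141134956-141135205, plus strand) are printed 5′ to 3′ with the beta element in capitals, followed by the same element in PCDHB4, its neighbour, and in PCDHB2, PCDHB12, PCDHB14, PCDHB15 and PCDHB16, whose values are given further on.
PCDHB5: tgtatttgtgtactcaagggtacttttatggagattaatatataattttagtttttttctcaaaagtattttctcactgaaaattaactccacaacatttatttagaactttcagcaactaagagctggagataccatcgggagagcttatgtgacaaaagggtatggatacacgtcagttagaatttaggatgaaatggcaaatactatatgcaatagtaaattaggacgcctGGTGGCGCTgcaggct
PCDHB4 (chr5:141121722-141121751): atcaagacgcagGGTGGCGCTgcaggctaa
PCDHB2 (chr5:141094543-141094572): gaagagacgcggGGTGGCGCTgcagcctta
PCDHB12 (chr5:141208642-141208671): gtggagacgcgtGGTGGCGCTgcaggataa
PCDHB14 (chr5:141223262-141223291): atggagacacatGGTGGCGCTacaggataa
PCDHB15 (chr5:141245313-141245342): aagacaacgcatGGTGGCGCTgcaggctaa
PCDHB16 (chr5:141182309-141182338): gtgagaacgcgtGGTGGCGCTgcaggttaa
The same letters stand in the reference windows of PCDHB5 and of the other printed members, which did not pass the test between lines. The element begins at base −16 from the annotated start in PCDHB5 and at −84 to −60 in the other printed members. In PCDHB10 and PCDHB13, which are not printed, it begins at −43. Whether its position bears on the level was not tested. The sequences of the KO1 and KO2 lines were not examined.

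PCDHGA10 and PCDHGA11, gamma A members that lie on either side of PCDHGB7 and differed in opposite directions in KO2, carry the gamma A form. Their 250 upstream bases are chr5:141412737-141412986 and chr5:141420801-141421050 (GRCh38.p14, plus strand), with the match in capitals, followed by the shorter stretches of PCDHGA6 and PCDHGA8, which rose with differentiation.
PCDHGA10: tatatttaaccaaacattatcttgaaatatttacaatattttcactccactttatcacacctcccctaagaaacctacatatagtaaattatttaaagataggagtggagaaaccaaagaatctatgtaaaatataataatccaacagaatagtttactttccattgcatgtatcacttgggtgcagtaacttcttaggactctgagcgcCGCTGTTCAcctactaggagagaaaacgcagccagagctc
PCDHGA11: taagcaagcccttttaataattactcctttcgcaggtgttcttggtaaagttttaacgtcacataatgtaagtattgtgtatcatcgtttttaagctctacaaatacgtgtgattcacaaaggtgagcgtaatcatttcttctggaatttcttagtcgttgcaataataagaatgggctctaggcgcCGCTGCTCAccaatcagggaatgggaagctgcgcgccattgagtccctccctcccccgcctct
PCDHGA6 (chr5:141373839-141373868): gactctaagcgtCGCTGTTGAccaacctgg
PCDHGA8 (chr5:141392572-141392601): gactgtaagcgcCGCTGTTCAcctactgga

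The alpha members PCDHA7, PCDHA11 and PCDHA12, which differed between lines or days, carry the alpha form, again in capitals.
PCDHA7 (chr5:140834174-140834202): tggccacatgatGTCGCTCTttaccgcaa
PCDHA11 (chr5:140868885-140868913): taggcgcaaggtGTCGCTCTttacttggt
PCDHA12 (chr5:140875246-140875274): cagtcacatgatGTCGCTCTacactcaga

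At day 0, in the filtered fit of all 12 libraries, the clustered protocadherins of the knockout lines were called different from WT in 1 member. PCDHB5 was called lower in KO1 and in KO2, and no member was called higher in either line. Among all features tested, 0.238% were called in KO1 against WT (0.0596% higher, 0.179% lower) and 0.143% in KO2 against WT (0.0536% higher, 0.0893% lower), by edgeR's quasi-likelihood test with Benjamini-Hochberg adjustment at 0.05, the test used throughout. DESeq2 also called none higher. With no filter on low counts, and in a fit of only the groups compared, PCDHGA10 was called higher and PCDHGA11 lower in KO2. The same held when either KO1 day 0 library was left out. With no filter, 2 members were called lower in KO1. The comparisons of KO1 and of KO2 with WT share the WT libraries.

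PCDHB5 stood at 18.0 and 20.4 CPM in the WT day 0 libraries. It stood at 2.58 and 2.76 CPM in KO1 and at 2.15 and 1.76 CPM in KO2. Every knockout library was therefore below every WT library by several-fold. The log2 difference from WT at day 0 was −2.84 ± 0.157 (SE) in KO1, a 7.18-fold lower level with edgeR adjusted p = 2.28e-07. In KO2 it was −3.29 ± 0.188, or 9.78-fold lower, with edgeR adjusted p = 3.52e-07.

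The gap in PCDHB5 was also present at day 4. The WT libraries then stood at 26.6 and 28.4 CPM, the KO1 libraries at 1.47 and 1.93 CPM and the KO2 libraries at 1.85 and 2.14 CPM. The groups again did not overlap, and the knockout libraries remained above the level of 3 counts, which corresponds to 0.201 to 0.259 CPM in those 4 libraries. The log2 difference from WT was −3.99 ± 0.177 in KO1 (edgeR adjusted p = 3.13e-09) and −3.77 ± 0.171 in KO2 (edgeR adjusted p = 1.17e-09). KO2 and KO1 were not told apart by the test at day 0 (log2 −0.45 ± 0.231, edgeR adjusted p = 0.938) or at day 4 (log2 0.22 ± 0.252, edgeR adjusted p = 0.621).

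The level of PCDHB5 rose with differentiation in WT by log2 0.51 ± 0.128 (edgeR adjusted p = 0.00369). In KO1 it fell by 0.64 ± 0.225 on the log2 scale (edgeR adjusted p = 0.0237), and in KO2 the value was 0.03 ± 0.257 (edgeR adjusted p = 0.938). The day change in KO1 was lower than that in WT by log2 −1.15 ± 0.258 (edgeR adjusted p = 0.012), the 1 member called in that test, with 9.80% of all features called (4.99% higher, 4.81% lower), and for KO2 the difference of day changes was −0.48 ± 0.29 (edgeR adjusted p = 0.317). The fall in KO1 was lost with DESeq2 (adjusted p = 0.0776) and in a fit of only the groups compared (0.0967). Leaving out KO1 day 4 replicate 1 took the KO1 difference of day changes to an adjusted p of 0.0882 and the fall in KO1 to 0.182. Without KO1 day 0 replicate 2 the fall in KO1 had an adjusted p of 0.0944.

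**Figure D1:**
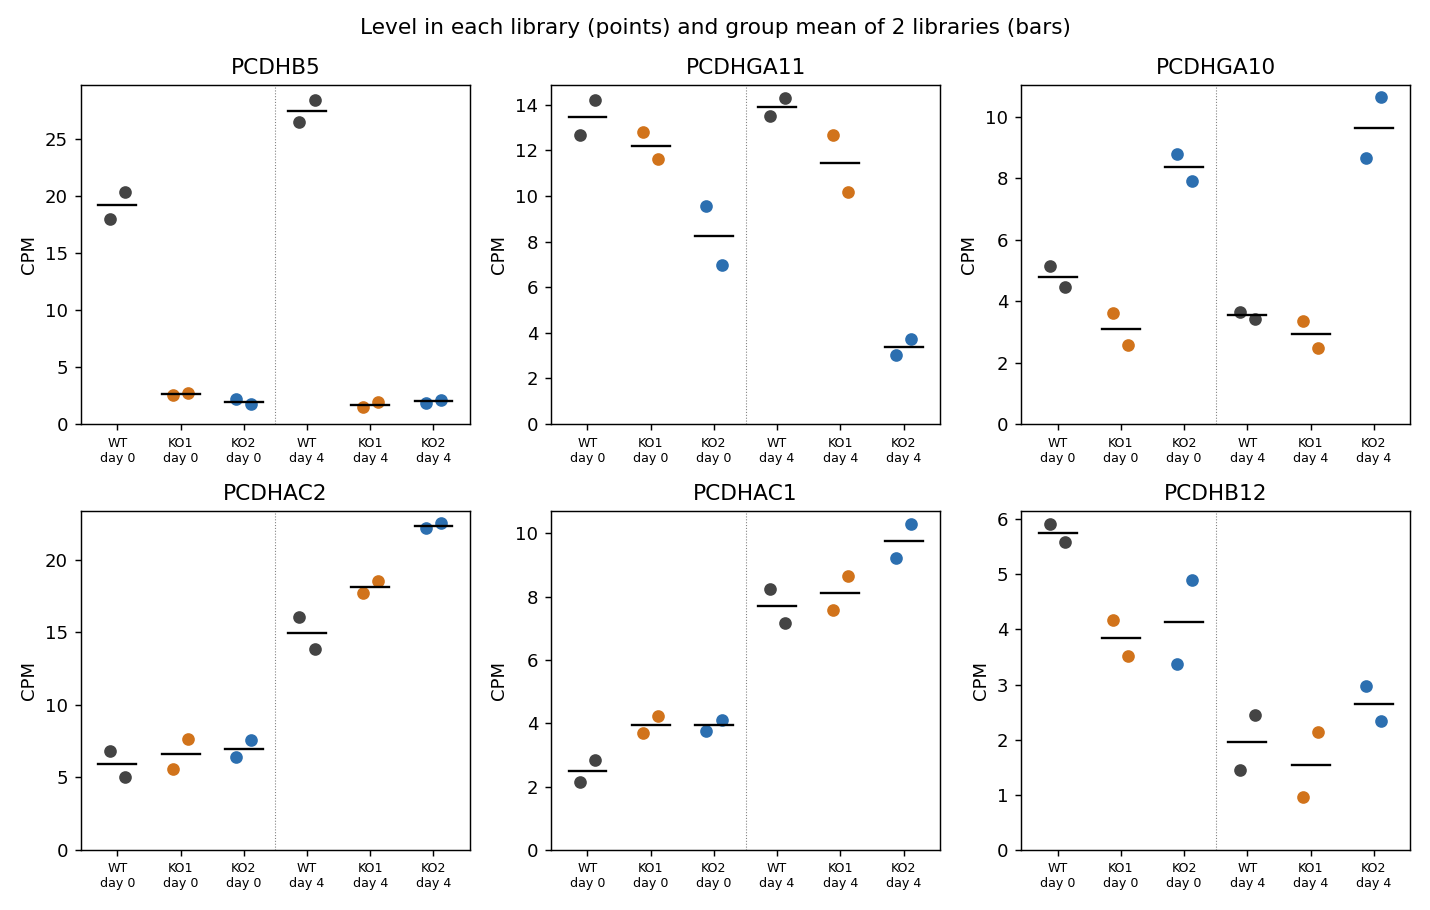
Level (CPM, linear axis from 0) of PCDHB5, PCDHGA11, PCDHGA10, PCDHAC2, PCDHAC1 and PCDHB12 in each of the 12 libraries, with WT in grey, KO1 in orange and KO2 in blue, and bars at the mean of 2 libraries. PCDHB5 sits at 18.0 to 28.4 CPM in the WT libraries and at 1.47 to 2.76 CPM in all knockout libraries, while PCDHGA11 is lowest and PCDHGA10 highest in KO2 at day 4.

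As a share of the counts on the beta cluster, PCDHB5 made up 14.0% (95% exact binomial interval 12.2% to 16.0%) and 14.9% (13.4% to 16.6%) in the WT day 0 libraries, and 22.3% (20.3% to 24.5%) and 21.4% (19.7% to 23.3%) in the WT day 4 libraries. In the 8 knockout libraries the share was 1.68% to 3.12%. These intervals cover counting error only. In the bulk RNA measured here, fewer cells using a promoter and less RNA from it in each cell cannot be told apart.

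The beta genes that flank PCDHB5 on the chromosome did not share its size of difference. PCDHB4 stood at 2.03 and 1.20 CPM in the WT libraries at day 0, with 0.769 and 1.56 for KO1 and 1.59 and 1.47 for KO2, and these ranges overlapped. At day 4 its log2 difference from WT was −0.15 ± 0.435 in KO1 and −0.11 ± 0.428 in KO2 (edgeR adjusted p = 0.856 and 0.874). PCDHB6, on the other side, stood at 3.74 and 2.96 CPM in WT cells, 2.59 and 1.38 CPM for KO1 and 1.69 and 1.61 CPM for KO2 at day 4. Its knockout libraries were all below its WT libraries, and the test called it lower in KO2 (log2 −1.02 ± 0.295, edgeR adjusted p = 0.018) and not in KO1 (log2 −0.78 ± 0.29, edgeR adjusted p = 0.0706). In KO1 it was called under a replicate block (edgeR adjusted p = 0.0472), with no filter (0.0411) and without either KO1 day 0 library or KO1 day 4 replicate 1 (0.0311 to 0.0359), so the lines are not shown to differ. The KO2 call was lost with DESeq2 (0.0623) and without WT day 4 replicate 1, KO2 day 4 replicate 1 or KO2 day 4 replicate 2 (adjusted p 0.0709 to 0.129). PCDHB4 and PCDHB6 were chosen for their position after their values were seen.

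Apart from PCDHB5, no beta member was called at day 0, and most values were below WT. With PCDHB5 included, 17 of 18 tested beta members in KO1 had a log2 difference below 0 and the median was −0.35, against 0.00 over all features tested. In KO2, 13 of 18 were below 0 with a median of −0.26. An unadjusted p under 0.05 was reached by 8 of the 18 in KO1 and 4 in KO2. Among them PCDHB19P, a pseudogene chosen after its values were seen, stood at 2.03 and 1.84 CPM in WT, against 0.989 and 1.25 for KO1 and 0.656 and 0.979 for KO2, without overlap (edgeR adjusted p = 0.473 and 0.609). In all 3 clusters together, 12 of 55 members in each knockout line had an unadjusted p under 0.05 at day 0, as did 1638 of 16792 features in KO1 and 791 in KO2. The KO1 day 0 pair that stood apart bore on the count: without its replicate 1 there were 6 members lower and 1 higher than WT, and without its replicate 2 there was 1 lower, PCDHB5. Beta genes are close paralogs, and how the counting treated reads that fit several of them is not given in the sources used here.

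PCDHB2, which carried the most beta counts, stood at 27.9 and 30.7 CPM in the WT libraries at day 0, with 27.7 and 18.9 for KO1 and 25.1 and 27.7 for KO2. By day 4 its level was 25.7 and 30.2 CPM in WT cells, as against 26.7 and 26.4 CPM for KO1 and 31.5 and 31.2 CPM for KO2. The KO1 day 0 libraries of PCDHB2 were further apart than those of any other group. None of its comparisons passed the test in the fit of all 12 libraries, and in fits of only the groups compared its KO2 day change (log2 0.24, edgeR adjusted p = 0.0276) and KO2 against KO1 at day 4 (0.24, 0.0275) did. Without KO1 day 0 replicate 1, PCDHB2 was called lower in KO1 than in WT at day 0 (log2 −0.64, edgeR adjusted p = 0.000495, against −0.34 with all libraries), its day changes in KO1 (0.49, 0.000988) and KO2 (0.25, 0.0378) were called, and so were KO2 against KO1 at day 0 (0.48, 0.00938) and the KO1 difference of day changes (0.54, 0.0111). Its KO2 day change was also called without KO1 day 0 replicate 2 (0.25, 0.0381). Over the 9 comparisons between groups, 27 of the 55 tested members were called at least once and 28 were called in none. The matching share of all features was not computed. The day comparison alone called 49.6% of all features in WT, 58.4% in KO1 and 50.7% in KO2.

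PCDHB14 lay between 13.1 and 17.9 CPM in the day 0 libraries and between 15.5 and 19.8 CPM in the day 4 libraries. PCDHB16 lay between 13.5 and 16.8 CPM at day 0 and between 11.3 and 14.5 CPM at day 4. Neither passed the test between a knockout line and WT at either day. Over time in KO1, PCDHB14 rose (log2 0.43 ± 0.13, edgeR adjusted p = 0.00992, and 0.0565 without KO1 day 4 replicate 1) and PCDHB16 fell (−0.36 ± 0.131, edgeR adjusted p = 0.0292). The fall of PCDHB16 was lost with no filter (edgeR adjusted p = 0.0602), with only the groups compared (0.108) and with DESeq2 (0.0891). It was also lost without KO1 day 0 replicate 1 or either KO1 day 4 library.

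**Figure D2:**
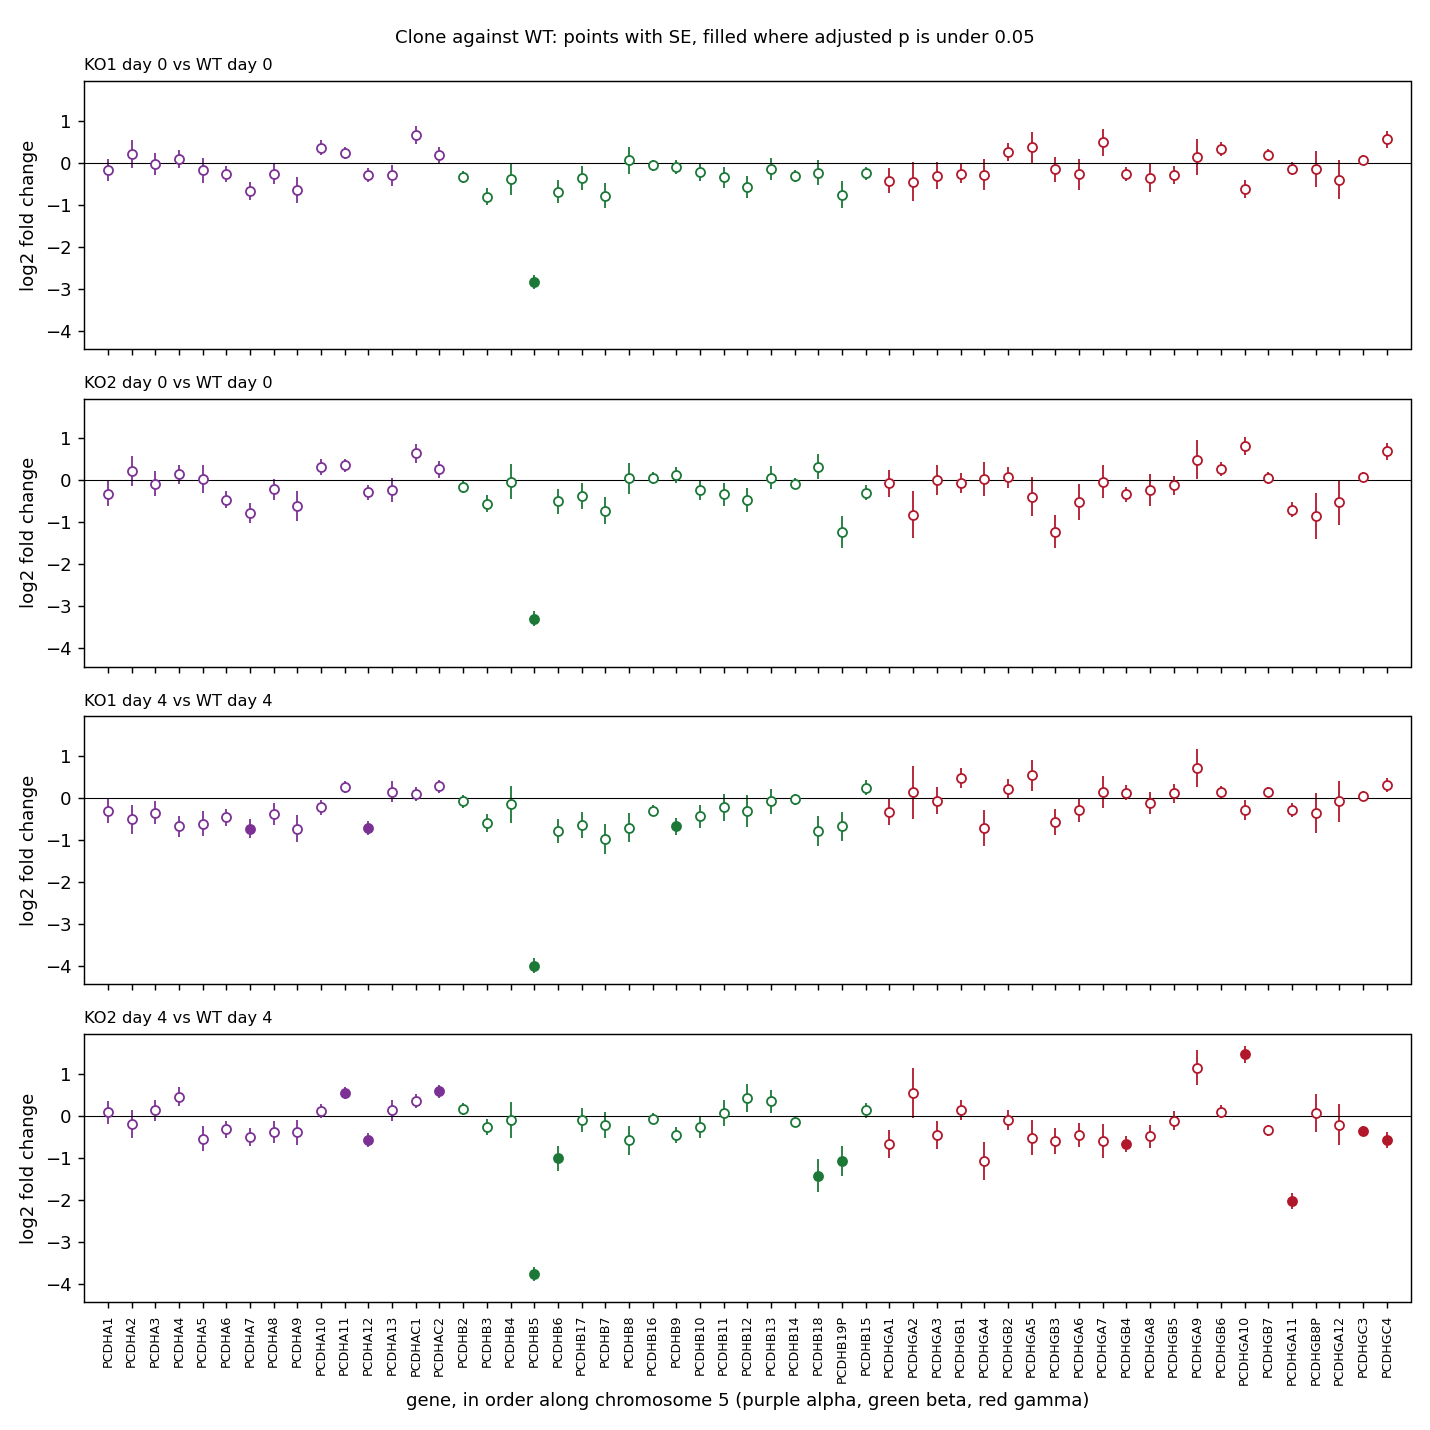
Log2 fold change of each of the 55 tested members in KO1 or KO2 against WT at day 0 and day 4, in order along chromosome 5, with the standard error and a filled point where edgeR's adjusted p was under 0.05. PCDHB5 is the 1 filled point at day 0 in each line and lies between −2.84 and −3.99 in the 4 panels, and PCDHGA10 and PCDHGA11 stand out on opposite sides of 0 in KO2 at day 4.

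At day 4 the knockout lines differed from WT in more members. In KO1, 4 members were lower and none higher, with 19.9% of all features called (10.5% higher, 9.42% lower), so that the share of members called was below that of all features. In KO2, 9 were lower and 3 higher, with 28.0% of all features called (13.5% higher, 14.5% lower). KO2 against KO1 gave 2 members higher and 5 lower, with 25.1% of all features called (10.8% higher, 14.3% lower). Apart from PCDHB5, the differences in KO1 were under 1 on the log2 scale, and in KO2 those past 1 among called members were in PCDHGA10, PCDHGA11, PCDHB6, PCDHB18 and PCDHB19P.

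PCDHGA11, a gamma A isoform, stood at 12.7 and 14.2 CPM in the WT libraries at day 0, with 12.8 and 11.6 for KO1 and 9.55 and 6.95 for KO2. In day 4 cells WT gave 13.5 and 14.3 CPM, KO1 12.7 and 10.2 CPM and KO2 3.05 and 3.75 CPM. KO2 was thus below WT and KO1 at both days, with the widest gap at day 4. At day 4 the log2 difference was −2.02 ± 0.19 from WT (edgeR adjusted p = 1.92e-06) and −1.73 ± 0.195 from KO1 (edgeR adjusted p = 1.16e-05). At day 0 the difference from WT was −0.71 ± 0.176 and did not pass the test (edgeR adjusted p = 0.246). It was called with no filter on low counts (edgeR adjusted p = 0.0255) and with only the groups compared (0.0464). It was also called when either KO1 day 0 library was left out (log2 −0.71 in each fit). Over the 18 alternatives this log2 difference lay between −0.96 and −0.50.

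In KO2 the level of PCDHGA11 fell between day 0 and day 4 by 1.27 ± 0.208 on the log2 scale (edgeR adjusted p = 0.000135). In WT the day change was 0.04 ± 0.16 and in KO1 −0.10 ± 0.159 (edgeR adjusted p = 0.835 and 0.612). The test of the difference of day changes between KO2 and WT gave −1.32 ± 0.263 (edgeR adjusted p = 0.00386), 1 of 3 members called lower and none higher, with 13.9% of all features called (6.37% higher, 7.50% lower). The calls on PCDHGA11 at day 4, on its fall in KO2 and on this difference were kept under every alternative tried.

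PCDHGA10, an adjacent gamma A isoform, moved the other way. It stood at 5.13 and 4.45 CPM in the WT libraries at day 0, with 3.62 and 2.58 for KO1 and 8.80 and 7.93 for KO2. The day 4 libraries held 3.66 and 3.42 CPM for WT, against 3.37 and 2.48 for KO1 and 8.67 and 10.6 for KO2. All KO2 libraries were above all WT and KO1 libraries. The log2 difference at day 4 was 1.45 ± 0.206 from WT (edgeR adjusted p = 0.000103) and 1.74 ± 0.216 from KO1 (edgeR adjusted p = 2.99e-05).

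At day 0 PCDHGA10 was higher in KO2 than in KO1 by log2 1.44 ± 0.209 (edgeR adjusted p = 0.0421), 1 of 2 features called in that comparison, which is 0.0119% of those tested. That call was lost in 11 of the 12 fits that left out 1 library, all but the one without KO1 day 0 replicate 1, with adjusted p 0.0579 to 0.931. Against WT at day 0 the difference was 0.81 ± 0.212 and was not called (edgeR adjusted p = 0.309). With no filter on low counts (edgeR adjusted p = 0.0377) and with only the groups compared (0.0392) it was called. It was also called when either KO1 day 0 library was left out (log2 0.81 in each fit). Over the 18 alternatives this log2 difference lay between 0.70 and 0.91. The day change of PCDHGA10 did not pass the test in any line.

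PCDHGB7, a gamma B isoform that lies between PCDHGA10 and PCDHGA11, stood at 12.5 and 15.3 CPM in the WT libraries at day 0, with 16.4 and 15.6 for KO1 and 14.3 and 14.8 for KO2. By day 4 its level was 19.2 and 18.3 CPM in WT cells, as against 21.5 and 19.9 CPM for KO1 and 15.7 and 13.8 CPM for KO2. KO2 lay below both other lines at day 4, by log2 −0.49 ± 0.127 against KO1 (edgeR adjusted p = 0.0101) and −0.35 ± 0.127 against WT (edgeR adjusted p = 0.0523). The difference from WT was called with upper-quartile scaling factors (edgeR adjusted p = 0.048) and with only the groups compared (0.0185). It was also called when any WT or KO1 day 0 library was left out. The call against KO1 was lost without KO1 day 4 replicate 1 (adjusted p = 0.0932) or, in turn, KO2 day 4 replicate 2 (0.131). PCDHGB6, on the other side of PCDHGA10, stood at 11.7 and 9.35 CPM in WT cells, 12.3 and 10.9 CPM for KO1 and 10.8 and 11.6 CPM for KO2 at day 4, with overlapping libraries. Gamma members share their constant exons, and reads there cannot be assigned to 1 member. The reads the authors' counting set aside as ambiguous came to 1.17% to 1.41% of each library.

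The C-type gamma genes also differed in KO2 at day 4. PCDHGC4 stood at 3.20 and 3.53 CPM in the WT libraries at day 0, with 4.83 and 5.07 for KO1 and 5.62 and 5.29 for KO2. In day 4 cells WT gave 6.79 and 5.28 CPM, KO1 6.82 and 7.98 CPM and KO2 4.17 and 3.81 CPM. It rose with differentiation in WT (log2 0.83 ± 0.198, edgeR adjusted p = 0.00269) and in KO1 (0.58 ± 0.172, edgeR adjusted p = 0.00873), and its KO2 value was −0.45 ± 0.2 (edgeR adjusted p = 0.0714). The day change in KO2 was lower than in WT by log2 −1.28 ± 0.281 (edgeR adjusted p = 0.00716), and at day 4 KO2 lay below KO1 by −0.90 ± 0.186 (edgeR adjusted p = 0.00231). The rise in KO1 was lost with DESeq2 (adjusted p = 0.0552) and without KO1 day 4 replicate 2. At day 4 PCDHGC4 was also called lower in KO2 than in WT (−0.59 ± 0.189, edgeR adjusted p = 0.0296). This call was lost with DESeq2 (adjusted p = 0.119) and without WT day 4 replicate 1 or either KO2 day 4 library. PCDHGC4 was chosen after its values were seen. PCDHGC5, the third C-type gamma gene, was below the filter, with 0.212 to 0.843 CPM in the other 10 libraries and 0.0802 and 0.0669 CPM in KO2 at day 4, under the level of 3 counts in those libraries.

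PCDHGC3, the C-type gene with the most gamma counts, stood at 19.9 and 22.1 CPM in the WT libraries at day 0, with 22.0 and 22.1 for KO1 and 23.0 and 21.6 for KO2. The day 4 libraries held 19.4 and 19.7 CPM for WT, against 20.4 and 20.0 for KO1 and 14.9 and 15.3 for KO2. It fell in KO2 by 0.56 ± 0.111 on the log2 scale (edgeR adjusted p = 0.000683), a call kept under every alternative. The KO2 libraries at day 4 were the lowest of all 12. Against WT at day 4 the difference was −0.37 ± 0.109 (edgeR adjusted p = 0.0205). This call was lost with no filter (edgeR adjusted p = 0.0705) and with DESeq2 (adjusted p = 0.0699). It was also lost when either WT day 4 library or either KO2 day 4 library was left out.

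The KO2 day 4 libraries in which PCDHGA11, PCDHGC3 and PCDHGC4 were low were also those with the lower endoderm markers. All 8 of the endoderm markers were called lower in KO2 than in WT at day 4, and 6 of the 8 stem cell markers were called higher. In KO1 at day 4, 3 of the 8 endoderm markers were lower than in WT. The part of these marker differences in the protocadherin values was not tested. At day 0 the KO2 libraries were above WT for PCDHGA10 and below WT for PCDHGA11. Neither day 0 difference was called in the filtered fit of all 12 libraries.

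Smaller differences at day 4 were seen in alpha members. PCDHA12 stood at 8.43 and 8.76 CPM in the WT libraries at day 0, with 6.48 and 7.47 for KO1 and 6.56 and 7.54 for KO2. By day 4 its level was 12.5 and 14.8 CPM in WT cells, as against 9.23 and 7.57 CPM for KO1 and 8.02 and 10.2 CPM for KO2. Knockout libraries were below WT libraries at both days. The day 4 difference was called in KO1 (log2 −0.71 ± 0.165, edgeR adjusted p = 0.00717) and in KO2 (−0.58 ± 0.162, edgeR adjusted p = 0.0147). Both were lost without WT day 4 replicate 2 (adjusted p 0.0808 in KO1 and 0.125 in KO2), and each without 1 knockout library, KO1 day 4 replicate 2 (0.103) or KO2 day 4 replicate 1 (0.141).

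PCDHA7 stood at 5.04 and 4.59 CPM in the WT libraries at day 0, with 3.46 and 2.58 for KO1 and 2.72 and 2.84 for KO2. In day 4 cells WT gave 4.65 and 4.06 CPM, KO1 2.59 and 2.61 CPM and KO2 2.73 and 3.35 CPM. Knockout libraries were again below WT libraries at both days. The test called it lower in KO1 at day 4 (log2 −0.74 ± 0.225, edgeR adjusted p = 0.0315). That call was lost with DESeq2 (adjusted p = 0.129) and when any of the 4 libraries compared was left out.

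PCDHB18, which RefSeq lists as a pseudogene, stood at 1.84 and 1.77 CPM in the WT libraries at day 0, with 1.43 and 1.60 for KO1 and 2.15 and 2.35 for KO2. The day 4 libraries held 0.992 and 1.74 CPM for WT, against 0.863 and 0.757 for KO1 and 0.562 and 0.469 for KO2. It fell in KO2 by 2.12 ± 0.376 on the log2 scale (edgeR adjusted p = 0.000271), a call kept under every alternative. A fall was also called in KO1. That KO1 call was lost with only the groups compared (log2 −0.91, edgeR adjusted p = 0.0575) and with DESeq2 (log2 −0.91, adjusted p = 0.161). It was also lost without KO1 day 0 replicate 2 or either KO1 day 4 library. The day change in KO2 was lower than in WT by log2 −1.75 ± 0.498 (edgeR adjusted p = 0.0291). This was lost with DESeq2 (adjusted p = 0.147). It was also lost when any of 7 of the 8 WT and KO2 libraries was left out, all but WT day 4 replicate 1. At day 4 PCDHB18 was called lower in KO2 than in WT (−1.43 ± 0.391, edgeR adjusted p = 0.0134). That call was lost with DESeq2 (adjusted p = 0.0738) and without WT day 4 replicate 2 or either KO2 day 4 library.

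A minority of the clustered protocadherins were called changed after 4 days of differentiation. The median of the members' mean levels was 3.44 CPM in the alpha, 2.68 in the beta and 2.42 in the gamma cluster. At such low levels, members not called are not shown to be unchanged. In WT, 10 members rose and 4 fell, or 25.5% of those tested, against 49.6% of all features (24.3% upward, 25.4% downward). In KO1, 9 rose and 8 fell, against 58.4% of all features (29.1% and 29.3%). In KO2, 5 rose and 6 fell, against 50.7% of all features (25.0% and 25.7%). The median log2 day change of the members was −0.08 in WT, −0.08 in KO1 and 0.02 in KO2, and that of all features was 0.00 in each line.

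In all 3 lines PCDHA11, PCDHAC1, PCDHAC2, PCDHGA6 and PCDHGA8 rose and PCDHB10 fell. The same direction in all 3 lines was called for 13.8% of all features upward and 15.9% downward. Within the clusters, 4 alpha, 1 beta and 5 gamma members rose in WT, and the 4 that fell were beta members. By type, 3 of the 4 tested C-type genes rose and none fell in WT and in KO1, and 2 rose and 1, PCDHGC3, fell in KO2. Of all features, 24.3% rose in WT, 29.1% in KO1 and 25.0% in KO2.

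PCDHAC2, the C-type gene nearest the alpha constant exons, stood at 6.78 and 5.01 CPM in the WT libraries at day 0, with 5.55 and 7.61 for KO1 and 6.37 and 7.54 for KO2. By day 4 its level was 16.0 and 13.9 CPM in WT cells, as against 17.7 and 18.5 CPM for KO1 and 22.1 and 22.5 CPM for KO2. Every day 4 library was above every day 0 library. The log2 day change was 1.36 ± 0.181 in WT, 1.45 ± 0.164 in KO1 and 1.68 ± 0.176 in KO2 (edgeR adjusted p = 1.75e-05, 2.31e-06 and 1.84e-06).

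PCDHAC1, the other alpha C-type gene, stood at 2.13 and 2.83 CPM in the WT libraries at day 0, with 3.68 and 4.23 for KO1 and 3.75 and 4.11 for KO2. In day 4 cells WT gave 8.24 and 7.15 CPM, KO1 7.59 and 8.67 CPM and KO2 9.23 and 10.3 CPM. Again no day 4 library overlapped the day 0 libraries. The log2 day change was 1.60 ± 0.203 in WT, 1.04 ± 0.174 in KO1 and 1.32 ± 0.189 in KO2 (edgeR adjusted p = 1.02e-05, 0.000115 and 4.2e-05). For both alpha C-type genes these calls were kept under every alternative, and the test of the difference in day change from WT was passed in neither knockout line (edgeR adjusted p 0.212 to 0.864). PCDHAC2 was higher in KO2 than in WT at day 4 by log2 0.58 ± 0.154 (edgeR adjusted p = 0.0107), a call lost without WT day 4 replicate 2 (adjusted p = 0.123), KO2 day 4 replicate 1 (0.0581) or KO2 day 4 replicate 2 (0.0697).

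PCDHA11 stood at 13.8 and 11.9 CPM in the WT libraries at day 0, with 17.1 and 12.9 for KO1 and 14.9 and 17.8 for KO2. The day 4 libraries held 17.0 and 16.8 CPM for WT, against 19.6 and 21.0 for KO1 and 23.0 and 25.8 for KO2. Within each line the day 4 libraries were above the day 0 libraries, by log2 0.40 ± 0.153 in WT, 0.44 ± 0.143 in KO1 and 0.58 ± 0.148 in KO2 (edgeR adjusted p = 0.0406, 0.0154 and 0.00434). With upper-quartile scaling factors (edgeR adjusted p = 0.0679) and with DESeq2 (adjusted p = 0.0639) the WT rise was not called. With only the groups compared the KO1 rise was not called (edgeR adjusted p = 0.0723). The WT call was lost in 5 of the 12 fits that left out 1 library (without WT day 0 replicate 2, either WT day 4 library or either KO1 day 4 library, adjusted p 0.0519 to 0.222). The KO1 call was lost without KO1 day 0 replicate 2 (0.112) or KO1 day 4 replicate 2 (0.104), and the KO2 call without KO2 day 0 replicate 1 (0.0639). PCDHA11 was also higher in KO2 than in WT at day 4 (0.53 ± 0.143, edgeR adjusted p = 0.0116), a call lost without either WT day 4 library (0.0743 and 0.0796) or KO2 day 4 replicate 2 (0.115). PCDHA10, its neighbour, lay between 4.94 and 7.53 CPM at day 0 and between 5.26 and 7.76 CPM at day 4. It was not called in any comparison in the fit of all 12 libraries. Its WT rise was called when either KO1 day 0 library was left out (log2 0.43 in each fit).

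**Figure D3:**
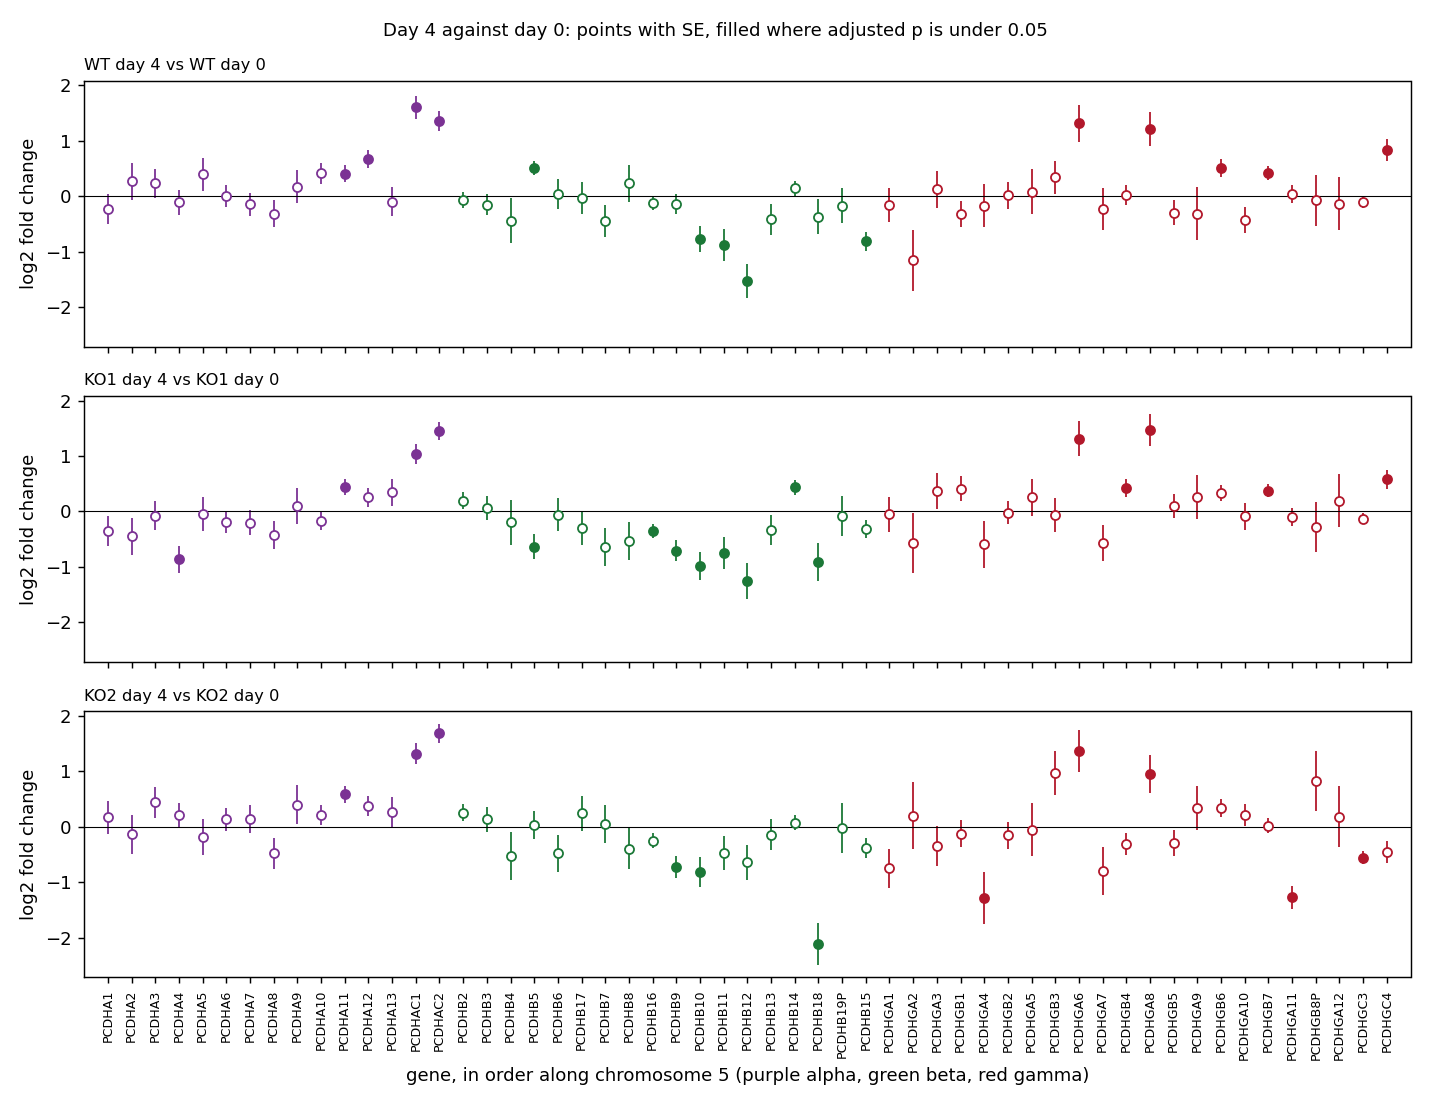
Log2 fold change of the 55 tested members between day 4 and day 0 in WT, KO1 and KO2, in order along chromosome 5, with the standard error and a filled point where edgeR's adjusted p was under 0.05. PCDHAC1 and PCDHAC2, at the end of the alpha cluster, lie between 1.04 and 1.68 in all 3 lines, and PCDHGA11 lies at −1.27 in KO2 against 0.04 in WT.

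Among the gamma A isoforms, PCDHGA6 stood at 2.03 and 1.34 CPM in the WT libraries at day 0, with 1.43 and 1.29 for KO1 and 1.03 and 1.27 for KO2. By day 4 its level was 5.34 and 2.96 CPM in WT cells, as against 2.76 and 3.92 CPM for KO1 and 3.21 and 2.74 CPM for KO2. Day 4 libraries were above day 0 libraries in all lines, and the log2 day change was 1.31 ± 0.326 in WT, 1.31 ± 0.317 in KO1 and 1.36 ± 0.381 in KO2 (edgeR adjusted p = 0.00353, 0.00232 and 0.00795). These calls were lost in WT without WT day 0 replicate 2 (0.0651) or WT day 4 replicate 1 (0.0655), in KO1 without KO1 day 4 replicate 2 (0.0537) and in KO2 without KO2 day 0 replicate 1 (0.0673). PCDHGA8, chosen after its values were seen, lay between 0.783 and 2.06 CPM at day 0 and between 2.68 and 4.14 CPM at day 4, without overlap. It rose by log2 1.22 ± 0.302 in WT and 1.47 ± 0.293 in KO1 (edgeR adjusted p = 0.00353 and 0.000522), calls kept under every alternative. In KO2 its value was 0.95 ± 0.341 (edgeR adjusted p = 0.0301). That call was lost with DESeq2 (adjusted p = 0.0748) and without KO2 day 0 replicate 2, KO2 day 4 replicate 1 or KO2 day 4 replicate 2.

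The gamma B isoforms PCDHGB6 and PCDHGB7 rose in WT by log2 0.50 ± 0.159 and 0.42 ± 0.129 (edgeR adjusted p = 0.0157 and 0.0133). The PCDHGB6 day 0 libraries stood at 7.75 and 7.06 CPM in WT cells, 9.06 and 9.39 CPM for KO1 and 9.46 and 8.23 CPM for KO2. The WT rise of PCDHGB6 was lost when replicate 2 of WT day 0 (0.1) or replicate 1 of WT day 4 (0.144) was left out, and that of PCDHGB7 when replicate 1 of WT day 0 (0.111) or of WT day 4 (0.0626) was. A rise of PCDHGB7 was also called in KO1. It was lost with upper-quartile scaling factors (log2 0.29, edgeR adjusted p = 0.0516), with only the groups compared (0.38, 0.0571) and without KO1 day 4 replicate 1. In KO2 the day change of PCDHGB7 was 0.02 ± 0.134 (edgeR adjusted p = 0.931), and its difference from the WT day change did not pass the test (edgeR adjusted p = 0.168).

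Falling members were in the beta cluster in WT. PCDHB12 stood at 5.91 and 5.58 CPM in the WT libraries at day 0, with 4.17 and 3.52 for KO1 and 3.37 and 4.90 for KO2. In day 4 cells WT gave 1.45 and 2.45 CPM, KO1 0.949 and 2.13 CPM and KO2 2.97 and 2.34 CPM. Every day 4 library was below every day 0 library. The log2 day change was −1.53 ± 0.305 in WT (edgeR adjusted p = 0.000663), kept under every alternative, −1.26 ± 0.322 in KO1 (edgeR adjusted p = 0.00347, and 0.057 without KO1 day 4 replicate 1) and −0.64 ± 0.314 in KO2 (edgeR adjusted p = 0.101). The KO2 and WT day changes were not told apart (edgeR adjusted p = 0.204).

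PCDHB15 stood at 8.52 and 10.9 CPM in the WT libraries at day 0, with 8.13 and 8.23 for KO1 and 8.52 and 7.44 for KO2. The day 4 libraries held 5.11 and 5.99 CPM for WT, against 6.90 and 6.33 for KO1 and 6.18 and 6.02 for KO2. All day 4 libraries were below all day 0 libraries, and the test called the fall in WT (log2 −0.81 ± 0.169, edgeR adjusted p = 0.000935), a call kept under every alternative. PCDHB11 fell in WT from 2.81 and 3.11 CPM to 1.83 and 1.42 CPM (log2 −0.88 ± 0.287, edgeR adjusted p = 0.0189). That call was lost with DESeq2 (adjusted p = 0.101) and without WT day 0 replicate 2 or WT day 4 replicate 2. In KO1 PCDHB11 went from 2.69 and 2.0 CPM to 1.55 and 1.24 CPM, and in KO2 from 1.87 and 2.84 CPM to 1.69 and 1.67 CPM. The KO1 fall was called and the KO2 change was not. With only the groups compared (edgeR adjusted p = 0.0872) and with DESeq2 (adjusted p = 0.153) the KO1 call was lost. It was also lost without KO1 day 0 replicate 1, either KO1 day 4 library or KO2 day 4 replicate 1.

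Other called members were chosen after their values were seen. PCDHB10, the beta member that fell in every line, lay between 3.08 and 4.07 CPM at day 0 and between 1.38 and 2.58 CPM at day 4, without overlap, with log2 day changes of −0.77 ± 0.241, −0.98 ± 0.25 and −0.82 ± 0.264 in WT, KO1 and KO2. The falls in WT and KO2 were lost with DESeq2 (adjusted p = 0.0868 and 0.0845). PCDHB9 lay between 4.23 and 5.19 CPM in the day 0 libraries of all lines and at 4.27 and 4.32 CPM in WT cells, 2.76 and 2.61 CPM for KO1 and 3.13 and 3.08 CPM for KO2 at day 4. It fell in KO1 and KO2 (log2 −0.71 ± 0.189 and −0.72 ± 0.195), the KO2 fall being lost with DESeq2 (adjusted p = 0.0532). Its call against WT in KO1 (−0.68 ± 0.197) was lost with DESeq2 (adjusted p = 0.137) and without any 1 of the 4 libraries compared. PCDHA4 fell in KO1 from 6.37 and 5.21 CPM to 2.5 and 3.71 CPM and was higher in KO2 than in KO1 at day 4 by log2 1.13 ± 0.239, the second a call kept under every alternative. PCDHGB4 was lower in KO2 (4.49 and 5.35 CPM) than in WT (7.55 and 8.25 CPM) at day 4 by log2 −0.68 ± 0.183. Left-out libraries ended several of these calls: for PCDHB10, WT day 0 replicate 1 or 2 or WT day 4 replicate 1 in WT (edgeR adjusted p 0.0555 to 0.127), KO1 day 4 replicate 2 in KO1 (0.0794) and any KO2 library in KO2 (0.0501 to 0.106). The same held for PCDHA4 in KO1 without KO1 day 4 replicate 1 (0.075), and for PCDHGB4 without WT day 4 replicate 2 (0.0746) or KO2 day 4 replicate 1 (0.0964).

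Summed over each cluster, the beta levels of KO1 and KO2 lay below WT at both days, and in KO2 at day 4 the gamma level did too. At day 0 the beta sum was 132.7 ± 5.94 CPM (SD, n = 2) for WT, 93.98 ± 8.08 for KO1 and 102.9 ± 2.97 for KO2, and 125.8 ± 9.69, 86.38 ± 0.219 and 95.96 ± 1.61 CPM at day 4. Without PCDHB5, a sum chosen after its values were seen, the beta levels were 113.5 ± 4.24, 91.31 ± 8.20 and 100.9 ± 3.24 CPM at day 0 and 98.38 ± 8.38, 84.68 ± 0.099 and 93.97 ± 1.81 CPM at day 4. At day 4 the KO2 libraries (95.25 and 92.69 CPM) then lay within the range of the WT libraries (92.45 and 104.3 CPM), and the KO1 libraries (84.75 and 84.61 CPM) below it.

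The alpha sum rose with differentiation in each line. At day 0 it was 69.74 ± 2.03 CPM for WT, 69.34 ± 6.26 for KO1 and 70.26 ± 5.07 for KO2, and 94.23 ± 0.933, 85.4 ± 4.82 and 104.6 ± 5.8 CPM at day 4. The gamma sum was 98.45 ± 1.03, 98.09 ± 2.57 and 97.37 ± 5.98 CPM at day 0 in the same order, and 109.5 ± 5.09, 111.8 ± 3.46 and 86.82 ± 2.61 CPM at day 4. The KO2 gamma libraries at day 4 (84.98 and 88.67 CPM) lay below the WT libraries (113.1 and 105.9 CPM). KO2 was thus the 1 line in which the gamma sum was lower at day 4 than at day 0. These sums mix members of unequal length and were not tested.

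**Figure D4:**
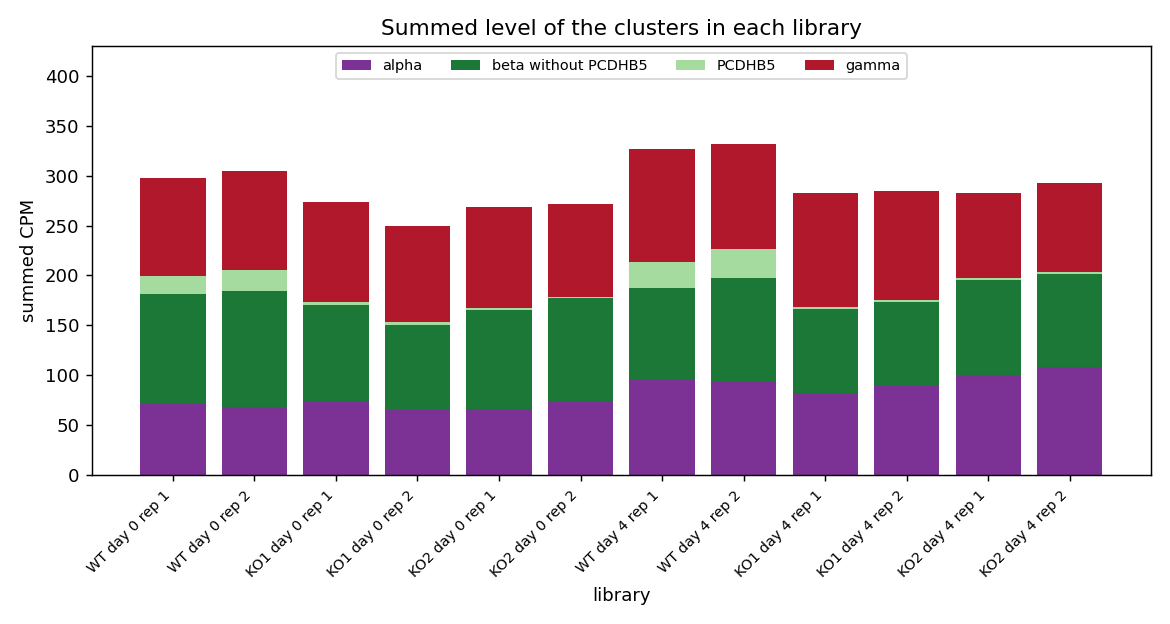
Summed CPM of the alpha cluster, the beta cluster without PCDHB5, PCDHB5 and the gamma cluster in each of the 12 libraries, stacked on a linear axis from 0. The alpha segment is taller at day 4 than at day 0, and the PCDHB5 segment is visible in the 4 WT libraries and thin in the 8 knockout libraries.

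**Figure D5:**
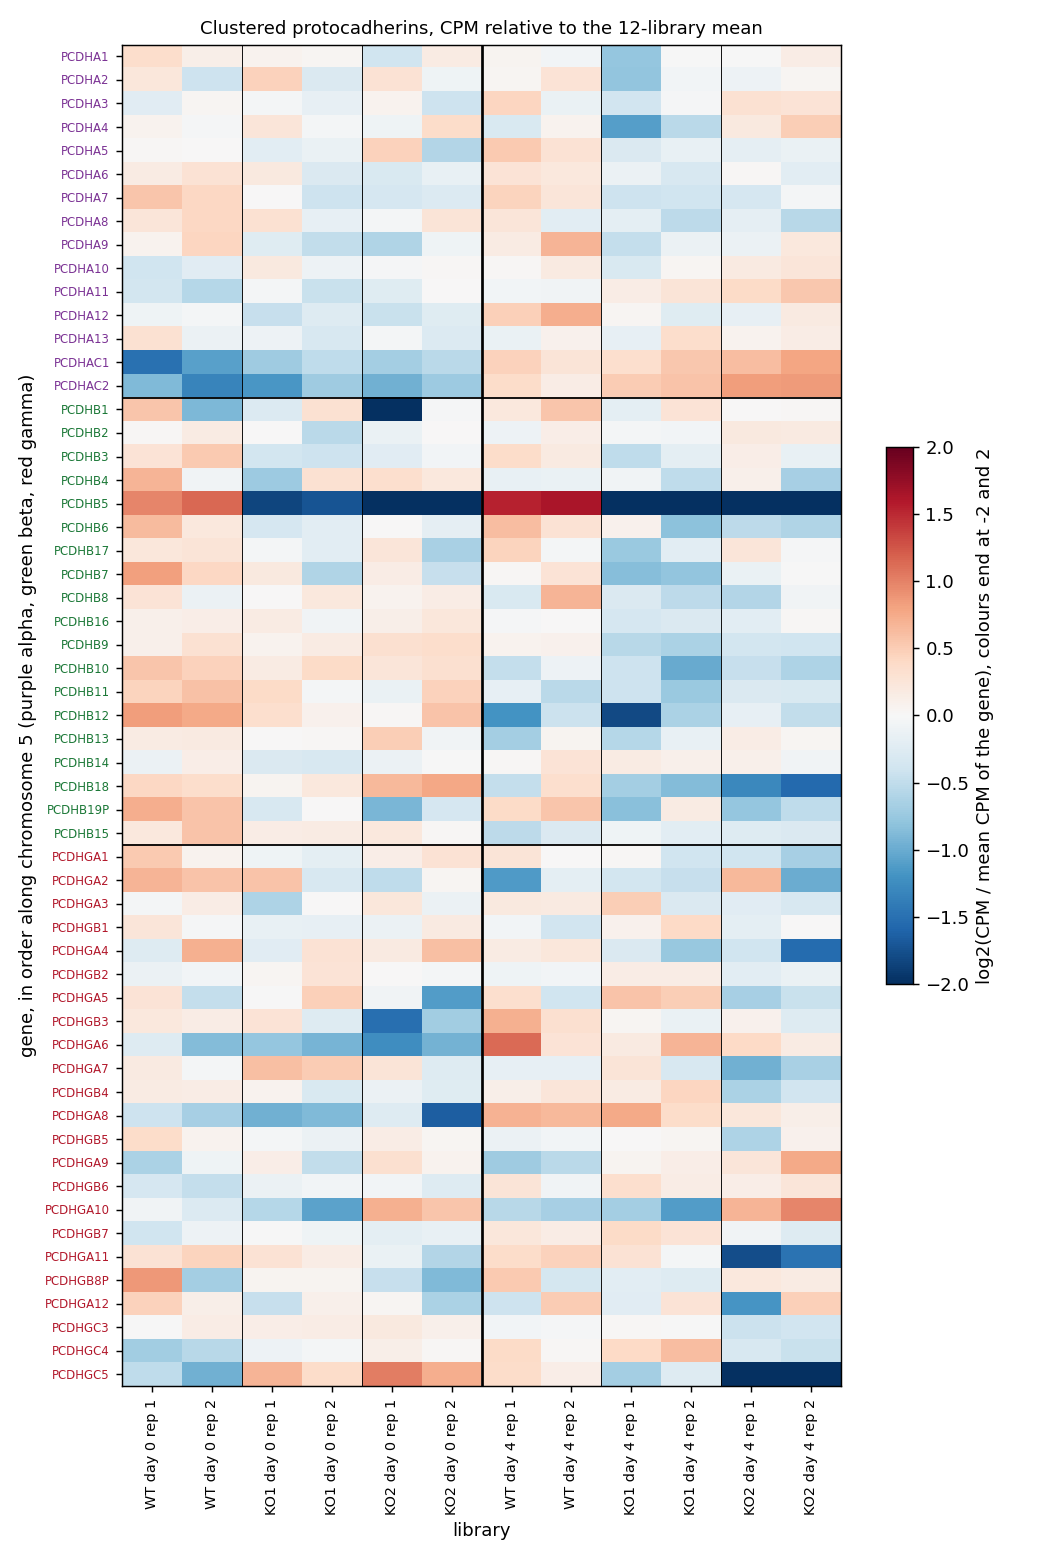
CPM of all 57 members in the 12 libraries relative to each member's mean over the libraries (log2, colours end at −2 and 2), in order along chromosome 5. PCDHB5 separates WT from knockout libraries at both days, PCDHAC1 and PCDHAC2 separate day 4 from day 0, and most other members stay pale.

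Genes that act on clustered protocadherin promoters were examined as a list of 27, all of them tested. None was called between a knockout line and WT at day 0 by edgeR, where 0.238% of all features were called in KO1 and 0.143% in KO2. An unadjusted p under 0.05 was reached by 2 in KO1 and 0 in KO2, against 1638 and 791 of 16792 features. With differentiation in WT, 8 rose and 6 fell, near the shares of all features (24.3% and 25.4%), among them TET2, which oxidises methylated DNA (log2 0.79 ± 0.165), and WIZ, a zinc finger partner of histone methyltransferases (0.59 ± 0.0985), upward, and DNMT3B, which methylates these promoters in mice (−1.10 ± 0.111), and EHMT2, a histone methyltransferase (−0.76 ± 0.102), downward. At day 4, 5 were higher and none lower in KO1 than in WT, where 10.5% of all features were higher and 9.42% lower, led by TET3 (0.44 ± 0.122) and the cohesin subunit STAG2 (0.32 ± 0.0782). In KO2, 9 were higher and 2 lower, where 13.5% of all features were higher and 14.5% lower, led by DNMT3B (0.60 ± 0.11) and TET1 (0.59 ± 0.0997) upward and TET2 (−0.66 ± 0.16) and WIZ (−0.29 ± 0.0968) downward. The list's median log2 difference at day 4 was 0.10 in KO1 and 0.18 in KO2, against 0.01 over all features in each.

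Of 21 partners and processing factors, which relay or cleave the protocadherin cytoplasmic tails, edgeR called none between a knockout line and WT at day 0. The shares of all features called were 0.238% in KO1 and 0.143% in KO2. An unadjusted p under 0.05 was reached by 4 in KO1 and 1 in KO2, against 1638 and 791 of 16792 features. In WT 6 rose and 4 fell with differentiation (24.3% and 25.4% of all features), led by the receptor kinase RET (log2 1.96 ± 0.111) and the gamma-secretase subunit NCSTN (0.64 ± 0.0702) upward and by the focal adhesion kinase relative PTK2B (−0.92 ± 0.172) and the actin regulator WASF3 (−0.90 ± 0.103) downward. At day 4, 3 were higher and 5 lower in KO1 than in WT (10.5% and 9.42% of all features), and none was higher and 6 lower in KO2 (13.5% and 14.5% of all features). The largest in KO1 were MARCKS (0.61 ± 0.105) and CYFIP2 (−0.70 ± 0.0799), and in KO2 RET (−0.71 ± 0.101).

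The 12 non-clustered protocadherins, which are not part of the 3 clusters, included larger day changes in WT than the clustered members did, while between lines the differences of PCDHB5 were the larger ones. With differentiation in WT 5 rose and 2 fell (24.3% and 25.4% of all features), and PCDH10 went from a mean of 13.4 to 469 CPM (log2 5.11 ± 0.257), PCDH15 rose by 3.37 ± 0.248, PCDH18 fell by 1.79 ± 0.18 and PCDH1 fell by 1.07 ± 0.106. At day 0 edgeR called none between a knockout line and WT (0.238% of all features in KO1 and 0.143% in KO2). An unadjusted p under 0.05 was reached by 2 in KO1 and 1 in KO2, against 1638 and 791 of 16792 features. At day 4, 4 were higher and 2 lower in KO1 (10.5% and 9.42% of all features) and 1 was higher and 4 lower in KO2 (13.5% and 14.5%), with PCDH7 at log2 −0.76 ± 0.143 in KO1 and −2.14 ± 0.157 in KO2.

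Of 21 tested genes that neighbour the clusters on 5q31, edgeR called none between a knockout line and WT at day 0. Of all features, 0.238% were called in KO1 and 0.143% in KO2. An unadjusted p under 0.05 was reached by 3 of these genes in KO1 and 1 in KO2, against 1638 and 791 of 16792 features. At day 4, 1 was higher and 4 lower in KO1 than in WT, and none was higher and 3 lower in KO2, against 19.9% and 28.0% of all features called in either direction. The largest was APBB3, an amyloid precursor binding protein gene upstream of the alpha cluster, at log2 −0.73 ± 0.126 in KO1 and −0.61 ± 0.125 in KO2. With differentiation in WT, 9 rose and 5 fell (24.3% and 25.4% of all features), and APBB3 rose by 1.47 ± 0.136.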

How the data were processed

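The values used were the deposited counts, whole reads per feature, which the authors made with Bowtie2 2.1.0, HTSeq 0.6.1 and hg19, per the submitters' processing notes. The labels' protocols name a stranded poly(A) kit, and the strand setting, the gene models and the treatment of multi-mapping reads were not given in the sources used here. Rows that name no gene stayed out of library sizes: reads outside features were 29.2% to 30.5% of a library, and reads of low alignment quality 19.3% to 22.2%. Libraries held 9942016 to 21394547 counts, and 3 counts correspond to 0.133 to 0.294 CPM.

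All 12 libraries entered 1 edgeR 4.0.16 quasi-likelihood fit with 6 group means in R 4.3.3 (TMM factors, filterByExpr), and p-values were adjusted by Benjamini-Hochberg over 16792 features. CPM used TMM-scaled totals, and SE is the log2 change divided by the root of F. The script was checked on simulated counts. Without gene lengths of the build, levels were not compared between genes. Alternatives were other scaling factors, no filter, a replicate block, only the groups compared, DESeq2 1.42.0 and leaving out each library.

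The members and lists were chosen with earlier results of these data known. Library values are given for the 4 members of each cluster with the highest mean CPM, and for the 3 largest called changes each way between a knockout line and WT and in WT over time, at 1 CPM or more. Of each gene list, the 2 largest called changes each way at 5 CPM or more may be named. Other members, and the beta sum without PCDHB5, were chosen after their values were seen. RefSeq (GRCh38) gave gene order and promoter sequences only. The ChIP-seq samples were not analysed here.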

Additional observations from a re-analysis of the deposited data

Results flagged for a closer look

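The day change of 4 members differed between a knockout line and WT by edgeR's test of the difference itself (log2, knockout line minus WT). In KO1 this was PCDHB5 (−1.15, adjusted p = 0.012). In KO2 these were PCDHB18 (−1.75, adjusted p = 0.0291), PCDHGA11 (−1.32, adjusted p = 0.00386) and PCDHGC4 (−1.28, adjusted p = 0.00716). Among all features tested, 9.80% were called in the KO1 comparison and 13.9% in the KO2 comparison. PCDHGA11 and PCDHGC4 kept their calls under each of the 18 alternatives, and those of PCDHB5 and PCDHB18 were lost under some.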

How the results depend on the processing

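Of all 72 calls on members in the fit of all 12 libraries, described above or not, 29 held under all 18 alternatives and none reversed. Calls under 2 libraries a group were often near the threshold. Counts of members moved by over 1.5 times as follows. With no filter on low counts, 2 members were lower in KO1 and 1 higher and 2 lower in KO2 than in WT at day 0, and 7 lower in KO1 at day 4. With only the groups compared, 4 fell in KO1, 1 was higher and 2 lower in KO2 than in WT at day 0, 7 were lower in KO1 at day 4, and 0 and 5 were higher in KO2 than in KO1 at day 0 and day 4. With DESeq2, 2 fell in WT, 4 in KO1 and 3 in KO2, and at day 4 there were 2 lower in KO1 and 4 lower in KO2 than in WT. The cause was not tested.

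Leaving out 1 library at a time, where a group of 1 is assumed to vary like the others, gave 6 to 11 rising and 2 to 4 falling in WT, 5 to 10 and 2 to 9 in KO1, and 3 to 7 and 4 to 7 in KO2. Against WT at day 0 it gave 0 to 1 higher and 1 to 6 lower in KO1, and 0 to 1 and 1 to 2 in KO2. Against WT at day 4 it gave 1 to 9 lower in KO1, and 1 to 4 higher and 2 to 12 lower in KO2. KO2 against KO1 gave 0 to 2 higher at day 0, and 3 to 6 lower at day 4. Day changes differed from WT for 0 to 1 higher and 0 to 1 lower in KO1, and for 2 to 5 lower in KO2.

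The replicate numbers did not pair the libraries: deviations of same-numbered libraries correlated at −0.0403 to 0.155 over 15 pairs of groups. A replicate block gave 10 rising and 4 falling in WT and moved no count by over 1.5 times, the largest shift being 5 in place of 4 members lower in KO1 at day 4.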
